A study of Mus musculus with 288 samples.

Results

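Ferritin and iron regulation genes are described here in single mouse embryonic stem cells leaving the naive ground state. The 6 genes were taken by name from the 54232 rows of the deposited count table. They are Ftl1 and its near-copy Ftl2 (ferritin light chain), Fth1 (ferritin heavy chain), Tfrc (transferrin receptor), Ireb2 and Aco1 (the iron regulatory proteins IRP2 and IRP1). Reads on Ftl1 and Ftl2 were also added, because the copies share sequence, and the sum is called Ftl below. They were named with earlier results of these data known, although the rule itself uses no measured value.

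The RNA came from scNMT-seq, a method that separates the RNA and the DNA of a single cell and sequences both. All samples are named as E14 mouse embryonic stem cells of strain 129/Ola. They were grown on gelatine-coated plastic, with LIF in the medium throughout. Cells labelled D0 (0 h) were in 2i medium, N2B27 with the inhibitors CHIR99021 and PD0325901. Those labelled D1 (24 h) and D2 (48 h) had been moved to medium with fetal bovine serum, with 96 wells under each label and 288 in all. As far as the labels show, each label was 1 culture on 1 plate. The time point cannot be told apart from the plate or the library, and single cells do not replicate a culture, so labels are compared without a test or a p-value.

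Cells keep free iron within bounds by storing it in ferritin, a hollow shell of light and heavy chains, and by setting how much transferrin-bound iron the transferrin receptor brings in. The heavy chain oxidises iron and the light chain helps to deposit it in the core. When iron is scarce, IRP1 and IRP2 bind a short hairpin, the iron-responsive element, in the messages of both sets of genes. Bound near the start of a ferritin message they block its translation, and bound in the tail of the Tfrc message they protect it from decay. IRP1 with an iron-sulphur cluster is instead a cytosolic aconitase, and IRP2 is degraded when iron is plentiful. RNA levels alone do not show the amount of ferritin protein.

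The hairpins are shown because they tie the storage and uptake genes to the regulators. The pattern CNNNNNCAGTGN followed by a strand of 5 bases that pairs with the 5 bases between the first C and the loop (G:T pairs allowed) was searched on the sense strand of GENCODE transcripts (GRCm38). In the sequences below the bulged C and the 6-base loop are in capitals. Ftl1 has its site at chr7:45459780-45459806 on the minus strand, in exon 1 of 4 and in the 5′ UTR. Fth1 has its site at chr19:9982733-9982759 on the plus strand, also in the 5′ UTR and in exon 1 of 4. The 4 sites of Tfrc lie in the 3′ UTR, in exon 19 of 19, on the plus strand at chr16:32631220-32631246, chr16:32631599-32631625, chr16:32631664-32631690 and chr16:32631711-32631737.
Ftl1: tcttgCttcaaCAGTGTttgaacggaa
Fth1: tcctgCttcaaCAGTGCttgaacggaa
Tfrc site 1: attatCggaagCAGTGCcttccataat
Tfrc site 2: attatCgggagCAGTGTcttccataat
Tfrc site 3: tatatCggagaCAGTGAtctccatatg
Tfrc site 4: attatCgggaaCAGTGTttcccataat

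Of 21877 genes with a protein-coding transcript, 31 (0.142%) held a match within the first 200 bases of one, and 294 (1.34%) held a match anywhere. Tfrc was the 1 gene with 4 or more matches in a transcript. No match was found in the coding transcripts of Ireb2 or Aco1. Among the other iron genes, Slc40a1 and Alas2 had a match in the first 200 bases and Bola3 had one elsewhere. A match is a description of these letters and not a measurement of binding.

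With limits on reads (over 200000), genes (over 2000) and the mitochondrial fraction of reads (under 0.15), 90 cells labelled D0, 50 labelled D1 and 93 labelled D2 remained, 233 in all. The median number of reads on genes was 1610758.5, 7956161.5 and 2162090, and the median number of detected genes was 9001, 10675.5 and 4744. All 6 pluripotency markers checked had reads under every label (Pou5f1, Sox2, Nanog, Zfp42, Esrrb and Utf1, with a summed median of 2181, 1273 and 3341 CPM). Of 5 erythroid markers 1 had any read under each label, with a summed mean of 0.0861 CPM or less. Of 5 macrophage markers 2 had reads under each label, with a summed mean of 14.6, 68.1 and 9.88 CPM, and Lyz2 and Adgre1 were at 0 throughout. Of 6 fibroblast markers 4, 6 and 4 had reads, with a summed median of 789, 239 and 130 CPM, and Col1a2 and Col3a1 were at 0 in D0 and D2. The cells labelled D1 stood apart in another way. Hprt had a read in 48 of 50 of them, against 9 of 90 in D0 and 7 of 93 in D2, and a sum of 4 Y-linked genes averaged 269, 22.9 and 5.21 CPM in D1, D0 and D2, although all 3 labels name the same line. For the origin of its E14 line the study cites a report on HPRT-deficient mouse embryos. In each comparison with D1 below, the time point therefore cannot be told apart from a difference in line or genotype. Results below are given without the 18 cells that differ from the rest of their label in Hprt reads wherever that matters.

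Ferritin RNA was about 2 times as abundant in D1 and D2 as in D0, whereas the means of Tfrc, Ireb2 and Aco1 were lower, with the exception that Aco1 in D1 was above D0 under TMM scaling of summed reads. Values are in CPM, reads scaled to a total of 1000000 reads in the cell. The summed ferritin level (Ftl1, Ftl2 and Fth1) averaged 2058 ± 980, 4136 ± 1535 and 4318 ± 1777 CPM in D0, D1 and D2 (SD between cells, n = 90, 50 and 93 cells). In D1, 48 of 50 cells lay above the D0 median, as did 92 of 93 cells in D2. The log2 ratio of mean CPM was 1.01 for D1 over D0 and 1.07 for D2 over D0. D1 and D2 differed by 0.06 on the log2 scale, far less than the spread between cells. Ferritin and detected genes per cell had a Spearman correlation of -0.33 in D0, -0.006 in D1 and -0.35 in D2. The part of detected genes in the differences between labels was not tested.

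**Figure D1:**
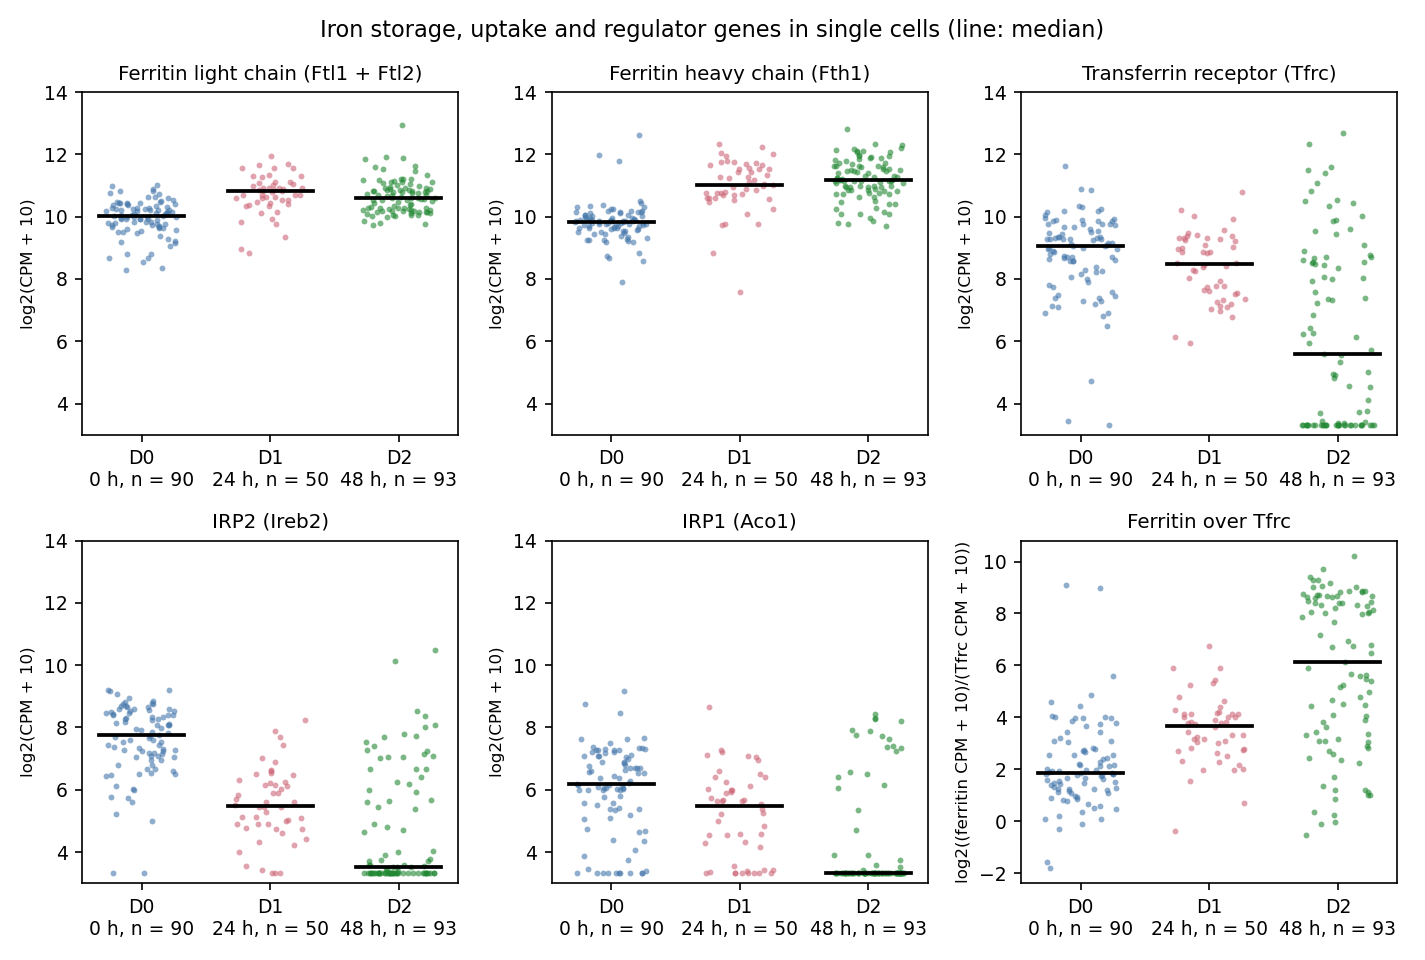
Level of each gene in single cells as log2(CPM + 10), and in the last panel the log2 ratio of ferritin (Ftl1 + Ftl2 + Fth1) to Tfrc, for 90 D0, 50 D1 and 93 D2 cells, with 1 point per cell and a line at the median. Ferritin chains are shifted upward in D1 and D2, and for Tfrc and Ireb2 the D2 cells spread from no read to the highest levels of any label.

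The light chain was detected in every cell. Ftl ranged from 304 to 2042 CPM in D0 with a median of 1026, from 441 to 3950 CPM in D1 with a median of 1788, and from 841 to 7884 CPM in D2 with a median of 1554. The ranges overlap, but 44 of 50 D1 cells and 88 of 93 D2 cells were above the D0 median. The mean was 1054 ± 380, 1824 ± 727 and 1748 ± 903 CPM, and the log2 ratio of the mean was 0.79 in D1 and 0.73 in D2 over D0, both under 2-fold. With reads summed over cells and TMM factors the ratios were 1.12 and 1.21, past 2-fold. For D1 it was 0.46 in plate columns 1 to 6 and 1.09 in columns 7 to 12.

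The heavy chain, Fth1, had the larger difference. It ranged from 230 to 6244 CPM in D0 with a median of 896, from 183 to 5121 CPM in D1 with a median of 2067, and from 814 to 7178 CPM in D2 with a median of 2295. The D0 cells were tightly grouped apart from a few at the top, since 75% of them were at or below 1041 CPM. The highest D0 cells, at 6244, 4019 and 3552 CPM, had 2342, 3875 and 4556 detected genes. The D0 median was 9001 detected genes, and the part of this number in the difference between labels was not tested. The mean was 1003 ± 742, 2311 ± 1084 and 2570 ± 1154 CPM, a log2 ratio of 1.20 for D1 and 1.36 for D2 over D0. On the log2(mean CPM + 10) scale, 4.89% of the 10493 genes read in 50% or more of the D0 or the D1 cells had a higher ratio than Fth1, and 3.02% of 8821 genes did so for D2 over D0.

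The make-up of ferritin reads moved with these levels. The median share of light chain reads among ferritin reads per cell was 52.6% for D0, 45.03% for D1 and 39.2% for D2. It ranged from 24.4 to 69.3%, from 11.8 to 80.2% and from 25 to 68.5%. In D0, 59 of 90 cells had more light than heavy chain reads, against 16 of 50 in D1 and 18 of 93 in D2. With reads summed over cells, the light chain share was 48.97, 44.3 and 42.03%.

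The deposited table has separate rows for Ftl1 and Ftl2. In the RefSeq gene table for GRCm38.p6, Ftl2 is a synonym of the pseudogene Ftl2-ps on chromosome 4 (125504080 to 125505018), and Ftl1 is at 45457944 to 45459884 on chromosome 7 in the GENCODE annotation. The 552 bases of the GENCODE Ftl2-ps transcript align to the Ftl1 transcript with 7 mismatches and no gap (98.7% identity), and 48.5% of its 75-base windows, the length of the RNA reads, occur unchanged in Ftl1.

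The split of reads between the copies set D1 apart from both other labels. Ftl2 took between 51.8 and 68.9% of Ftl reads per cell in D0 (median 63.3%) and between 46.1 and 71.3% in D2 (median 66.01%). In D1 the median was 0.397%, and 48 of 50 cells were below the lowest D0 cell. Ftl1 had a mean of 390 ± 139, 1787 ± 764 and 613 ± 321 CPM in D0, D1 and D2, and Ftl2 a mean of 664 ± 247, 36.8 ± 139 and 1136 ± 605 CPM. The log2 ratio of D1 over D0 was 2.20 for Ftl1 and -4.18 for Ftl2, in opposite directions, while D2 over D0 gave 0.65 and 0.77.

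The 2 D1 cells without an Hprt read had Ftl2 shares of 66.2% (2213 of 3342 reads) and 63.98% (1780 of 2782 reads). The first had no Y-linked read and the second had 895 CPM on the 4 Y-linked genes. The 48 D1 cells with an Hprt read had Ftl2 shares from 0 to 3.31%. Without those 2 cells the mean of Ftl2 in D1 was 9.04 ± 9.09 CPM, and that of Ftl 1855 ± 725 CPM. In D0, the 9 cells with an Hprt read had a summed Ftl2 share of 59.1%, against 63.4% in the other 81. Another copy followed the same pattern: Ftl1-ps2, a processed pseudogene on chromosome 10 with 97.8% identity to Ftl1, averaged 28.1, 1.62 and 31.7 CPM in D0, D1 and D2. Ftl1-ps1, a copy on chromosome 13 with 99.6% identity, did not, with 19.4, 36.4 and 10.8 CPM. The part of genotype, plate and read assignment in these shares was not tested. A level of Ftl1 or Ftl2 alone is therefore uncertain, and the sum is used for the comparison between labels.

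**Figure D2:**
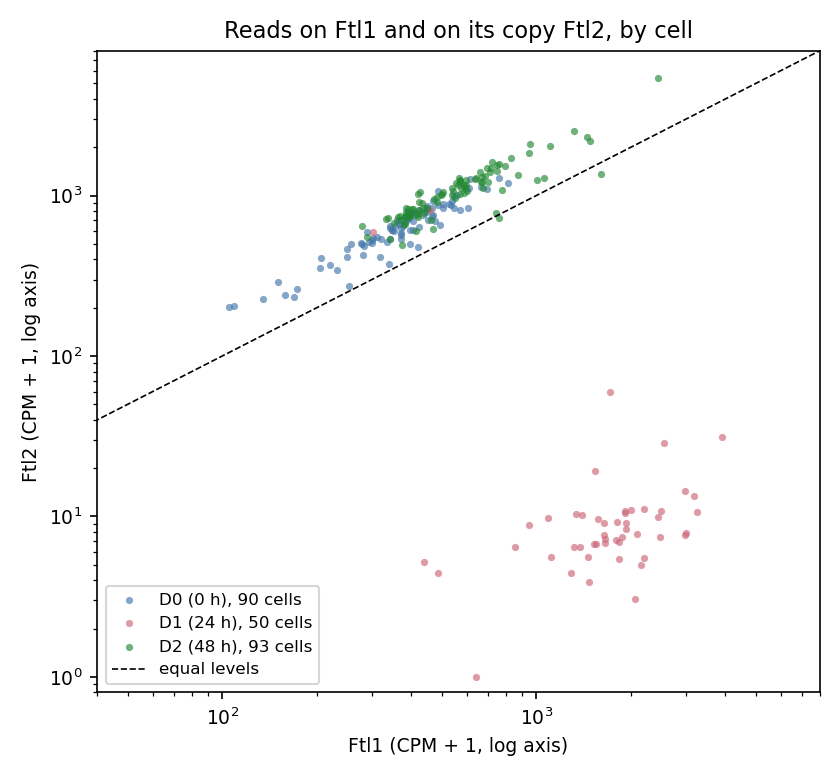
Ftl1 against Ftl2 in each cell (CPM + 1, log axes), with 1 point per cell coloured by label and a dashed line at equal levels. All 90 cells labelled D0 and 91 of 93 labelled D2 lie above the line, and 48 of 50 cells labelled D1 lie far below it.

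Other ferritin genes contributed little. The table has 17 rows named for ferritin chains, of which 9 are Fthl17 rows with a mean of at most 2.33 CPM under any label. Ftmt, mitochondrial ferritin, had no read in any of the 90, 50 and 93 cells, which leaves room for up to 3.33%, 6% and 3.23% of cells with one. The heavy chain pseudogenes Fth-ps2 and Fth-ps3 were at 0.300 and 0.105 CPM in D0 and had no read in D2.

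Tfrc, the route of transferrin-bound iron into the cell, had a lower mean than in D0 under both later labels, and its spread between cells was much wider in D2. It ranged from 0 to 3123 CPM in D0 with a median of 519, from 51.5 to 1751 CPM in D1 with a median of 346, and from 0 to 6574 CPM in D2 with a median of 38.7. In D2 most cells were low and a few were very high: 75 of 93 cells were below the D0 median, 30 had no read, and 12 were above 1000 CPM. The 10 highest D2 cells held 67.2% of the summed Tfrc level, against 28.4% in D0. The mean was 589 ± 461, 425 ± 323 and 457 ± 1028 CPM, and the log2 ratio of the mean was -0.47 in D1 and -0.37 in D2 over D0, within the spread between cells. The median over cells gave a log2 ratio of -3.75 for D2 over D0, so the size of the difference depends on how cells are averaged.

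A Tfrc read was found in 89 of 90 cells in D0 (98.9%, 95% Clopper-Pearson interval 93.96 to 99.97%), in 50 of 50 in D1 (92.9 to 100%) and in 63 of 93 in D2 (67.7%, 57.2 to 77.1%). With every cell thinned to 200000 reads the shares were 98.9, 100 and 62.4%, so the lower share in D2 was also present at equal read numbers. Detected genes per cell were fewest in D2 as well, with medians given above, and their part in the lower share was not tested. The intervals cover counting error only, since the counts carry no molecular identifiers.

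The balance of storage over uptake was higher under both later labels. Per cell, log2((ferritin CPM + 10)/(Tfrc CPM + 10)) ran from -1.79 to 9.08 in D0 with a median of 1.87, from -0.38 to 6.73 in D1 with a median of 3.67, and from -0.51 to 10.21 in D2 with a median of 6.14. In D1, 47 of 50 cells were above the D0 median, as were 80 of 93 in D2. The size of the highest D2 values depends on the 10 CPM added, since 30 of the 93 cells had no Tfrc read. Tfrc exceeded ferritin in 4, 1 and 3 cells. From the mean levels, the balance was 1.48 higher in D1 and 1.44 higher in D2 than in D0 on the log2 scale. The sides of the plates gave different sizes for D1, 0.95 in columns 1 to 6 and 1.96 in columns 7 to 12. Mean ferritin in D1 was 3649 CPM on the first and 4585 CPM on the second of these sides, and mean Tfrc was 472 and 382 CPM.

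**Figure D3:**
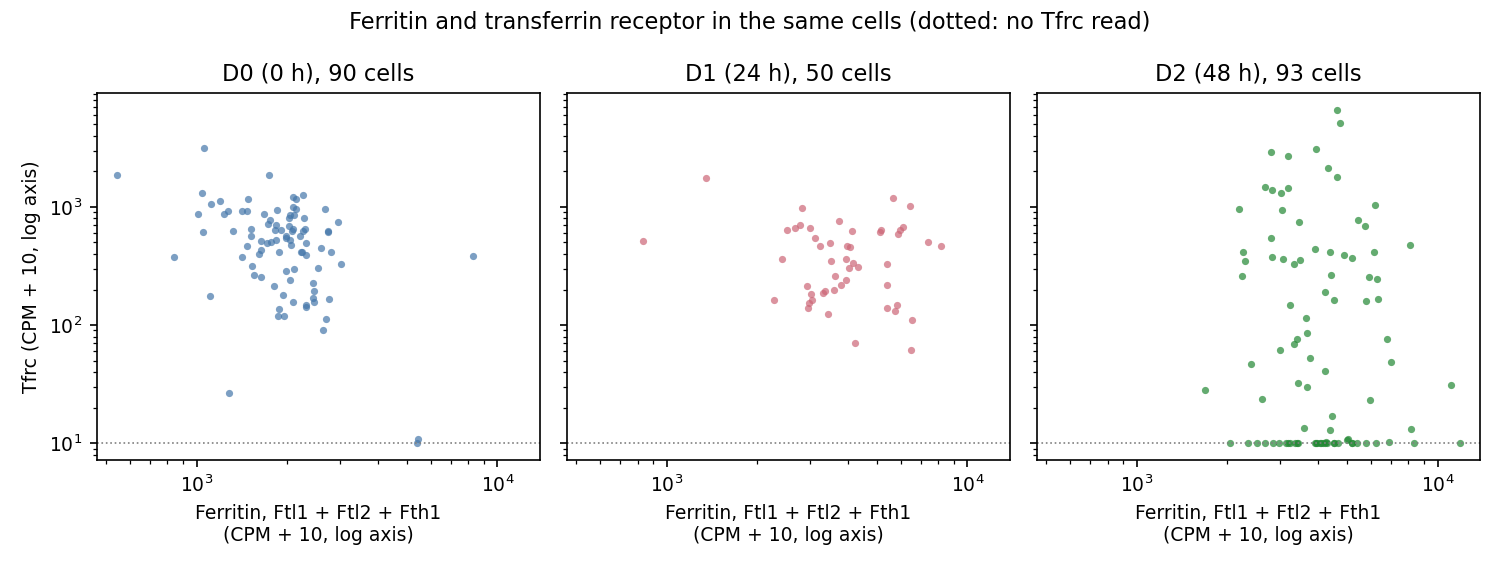
Ferritin (Ftl1 + Ftl2 + Fth1) against Tfrc in the same cells, as CPM + 10 on log axes, with 1 panel per label, 1 point per cell and a dotted line where no Tfrc read was found. In D2, the 12 cells above 1000 CPM of Tfrc lie between 2649 and 6173 CPM of ferritin, inside the range of the 30 cells with no Tfrc read, 2025 to 11834 CPM.

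Within a label, the relation between storage and uptake was weak and depended on the chain. Ferritin and Tfrc had a Spearman correlation across cells of -0.34 in D0 and of -0.07 in both D1 and D2. For Ftl alone it was -0.33, -0.34 and -0.09, and for Fth1 alone -0.30, 0.17 and -0.05. The light and heavy chains varied together, with 0.52, 0.37 and 0.48. Cells of a label share a plate, a library and a range of depth, so these are descriptions over 90, 50 and 93 cells. Ftl was also lower in cells with more detected genes, with correlations of -0.40 in D0, -0.03 in D1 and -0.36 in D2, and the part of complexity in the other correlations was not tested.

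Ireb2, the gene of IRP2, had a lower mean under both later labels than in D0. It ranged from 0 to 581 CPM in D0 with a median of 206, from 0 to 293 CPM in D1 with a median of 34.7, and from 0 to 1436 CPM in D2 with a median of 1.59. The upper end overlaps, but 48 of 50 D1 cells and 86 of 93 D2 cells were below the D0 median. A read was found in 88 of 90, 47 of 50 and 52 of 93 cells. The mean was 232 ± 143, 53.5 ± 59.1 and 69.4 ± 196 CPM, a log2 ratio of -2.11 for D1 and -1.74 for D2 over D0. The medians over cells gave -2.57 and -7.02, and in D2 the 10 highest cells held 69.9% of the summed Ireb2 level, so here too the size depends on how cells are averaged. Without the D1 cells that lack an Hprt read, its D1 mean was 46.2 ± 45.8 CPM.

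Aco1, the gene of IRP1, was lower in abundance than Ireb2 in D0 and sparse in D2. It ranged from 0 to 565 CPM in D0 with a median of 62.2, from 0 to 396 CPM in D1 with a median of 34.4, and from 0 to 335 CPM in D2 with a median of 0. Reads were found in 80 of 90, 42 of 50 and 26 of 93 cells. The mean was 83.6 ± 87.6, 47.4 ± 65.1 and 35.4 ± 80.5 CPM, a log2 ratio of -0.82 for D1 and -1.24 for D2 over D0, and these sizes were not stable. For D1 the ratio was -0.04 with reads summed over cells and 0.16 when these were also scaled by TMM factors, and for D2 it was -0.56 and -0.29, short of 2-fold. In plate columns 1 to 6 the ratios were -1.21 and -2.03, and in columns 7 to 12 they were -0.39 and -0.52. Ireb2 was past 2-fold lower on both sides, with -1.63 and -1.46 in columns 1 to 6 and -2.54 and -1.95 in columns 7 to 12, so that in D2 the ratio of Aco1 was the lower of the pair on the first side and that of Ireb2 on the second.

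Ireb2 took 77.4% of the summed reads on the pair in D0 (Clopper-Pearson 77.1 to 77.8%), 48.6% in D1 (48.3 to 48.98%) and 55.9% in D2 (55.3 to 56.5%). Per cell the picture in D2 was another one. Among cells with a read on either gene, the median share of Ireb2 was 75.2% in D0 (88 cells), 51.1% in D1 (47 cells) and 100% in D2 (60 cells), and the mean was 72.6, 57.02 and 69.1%. Ireb2 had more reads than Aco1 in 76 of 88, 24 of 47 and 41 of 60 of these cells. In D2, 34 of the 60 cells had reads on Ireb2 only, 8 on Aco1 only and 18 on both, so most shares were 0 or 100%. Reads on both were found in 80 of 88 D0 cells and 42 of 47 D1 cells.

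The uptake gene and the regulators were each read in fewer of the D2 cells, and so were their combinations. All of Tfrc, Ireb2 and Aco1 had a read in 80 of 90 cells in D0 and 42 of 50 in D1, but in 14 of 93 in D2, where 11 cells had none of them. Tfrc and Ireb2 were both read in 88 of 90, 47 of 50 and 35 of 93 cells. These counts are not set beside a share over all genes. The median number of detected genes was 9001, 10675.5 and 4744, and its part in the counts was not tested. Tfrc and Ireb2 had a correlation of 0.33 in D0, -0.10 in D1 and -0.02 in D2.

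Of the 6 genes, 2 were past 2-fold higher in D1 over D0 on the log2(mean CPM + 10) scale (Ftl1 and Fth1), against a background of 7.38% of 10493 genes, and 2 were past 2-fold lower (Ftl2 and Ireb2), against 16.7%. In D2 over D0, 1 was past 2-fold higher (Fth1), against 6.86% of 8821 genes, and 2 were lower (Ireb2 and Aco1), against 20.5%. The median of the 6 genes was -0.58 and 0.14, and the median of all genes tested was -0.13 and -0.16. Both comparisons share the D0 cells. With 6 genes, of which a pair share reads, these shares are descriptions. With the uncertain split of Ftl1 and Ftl2 replaced by their sum, which was within 2-fold in both comparisons, 1 of 5 was higher (Fth1) and 1 lower (Ireb2) in D1, and 1 was higher (Fth1) and 2 lower (Ireb2 and Aco1) in D2, with a median of -0.46 and -0.36. With TMM factors the D2 counts were 2 higher (Ftl2 and Fth1), against 11.5% of all genes under the same scaling, and 1 lower (Ireb2), against 15.7%.

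Levels of different genes were compared per kilobase of the longest GENCODE transcript. In D0 the mean was 1089 ± 393 CPM per kb for Ftl, 487 ± 360 for Fth1, 120 ± 94.3 for Tfrc, 40.2 ± 24.9 for Ireb2 and 21.8 ± 22.9 for Aco1 (SD between cells). In D1 the order was Ftl (1884), Fth1 (1121), Tfrc (86.9), Aco1 (12.4) and Ireb2 (9.28 CPM per kb), and in D2 Ftl (1806), Fth1 (1246), Tfrc (93.4), Ireb2 (12.03) and Aco1 (9.25 CPM per kb). Ireb2 and Aco1 differed by less than their spread in each label, and in D2 the SD of Tfrc (210 CPM per kb) was larger than its distance to either. The place of Fth1 depends on the length used. Its longest transcript, of 2062 bases, retains an intron, and with the 929 bases of its first-numbered coding transcript its level was 1080, 2488 and 2766 CPM per kb, above Ftl in D1 and D2.

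The genes most like each ferritin chain across cells were named by the mean of the Spearman correlations within the 3 labels, among the 3122 or 3123 genes read in 50% or more of the cells under every label. For Ftl they were Rps19 (0.64), Fau (0.62), Rpl41 (0.60), Rps18 (0.60) and Rpl13 (0.60), all of which encode ribosomal proteins, with the 99th percentile of all 3122 genes at 0.51. For Fth1 they were Nme1 (0.46), Ftl1 (0.46), Atp5j2 (0.43), Ndufa11 (0.43) and Ppia (0.43), and Ftl2 was at place 6. For Tfrc they were Ppil4 (0.41), Ssb (0.38), mt-Nd6 (0.35), Nap1l1 (0.34) and Hnrnpu (0.33). Those of Tfrc rested mostly on D1, with correlations between 0.58 and 0.73, against 0.21 to 0.39 in D0 and 0.08 to 0.23 in D2. With Pearson correlation of log2(CPM + 10), 3 of the 5 genes remained for Ftl, 1 for Fth1 and 2 for Tfrc. In cells thinned to 200000 reads 4, 5 and 4 remained.

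The wider iron list held 98 genes, of which 97 are in the table. Of 74 that were read in 50% or more of the D0 or the D1 cells, 10 were past 2-fold higher and 10 lower in D1 over D0 (13.5% each), beside the 7.38% and 16.7% over all genes, with a median log2(mean CPM + 10) ratio of -0.14. Of 62 in D2 over D0, 4 were higher (6.45%) and 10 lower (16.1%), beside 6.86% and 20.5%, with a median of 0.09. TMM factors shifted all ratios up by 0.21 in D1 and 0.28 in D2, which gave 12 higher and 8 lower in D1 and 11 higher and 9 lower in D2, and over all genes 9.72% and 12.5% in D1 and 11.5% and 15.7% in D2. Ratios in the following paragraphs are on the log2(mean CPM + 10) scale.

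A mixed group of genes, listed as regulators of the IRPs, as iron sensors or as carriers of an iron-responsive element, gave 2 higher and 4 lower of 9 in D1, and 1 higher and 2 lower of 8 in D2. Fbxl5, the iron-sensing subunit of the ligase that degrades IRP2, averaged 185 ± 141, 66.2 ± 68.97 and 103 ± 305 CPM (ratios -1.36 and -0.79). Skp1a, the adaptor that holds such a subunit in the ligase, was the highest of the group, with 293 ± 169, 1153 ± 618 and 901 ± 625 CPM (1.94 and 1.59). Bach1, a haem-sensing repressor of Hmox1 and of ferritin genes, was lower, with 60.9 ± 53.5, 12.95 ± 17.4 and 3.58 ± 13.4 CPM (-1.63 and -2.38), and its reads were found in 91.1, 72 and 11.8% of cells. Cdc42bpa, a kinase gene, was also lower (-1.29 and -1.55). It and Slc11a1 are not regulators of the IRPs, and no match to the hairpin pattern above was found in the transcripts searched for either. The mean of Slc11a1, a metal transporter best known from phagosomes, went in opposite directions, with 86.7 ± 125, 9.63 ± 38.6 and 175 ± 331 CPM (-2.30 and 0.94). Its median was 35.7, 0 and 2.41 CPM, lower than in D0 under both later labels, and 70, 14 and 59.1% of cells had a read. Epas1, a hypoxia-inducible factor, was higher in D1 (1.45) and was read in 7.53% of cells in D2.

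**Figure D4:**
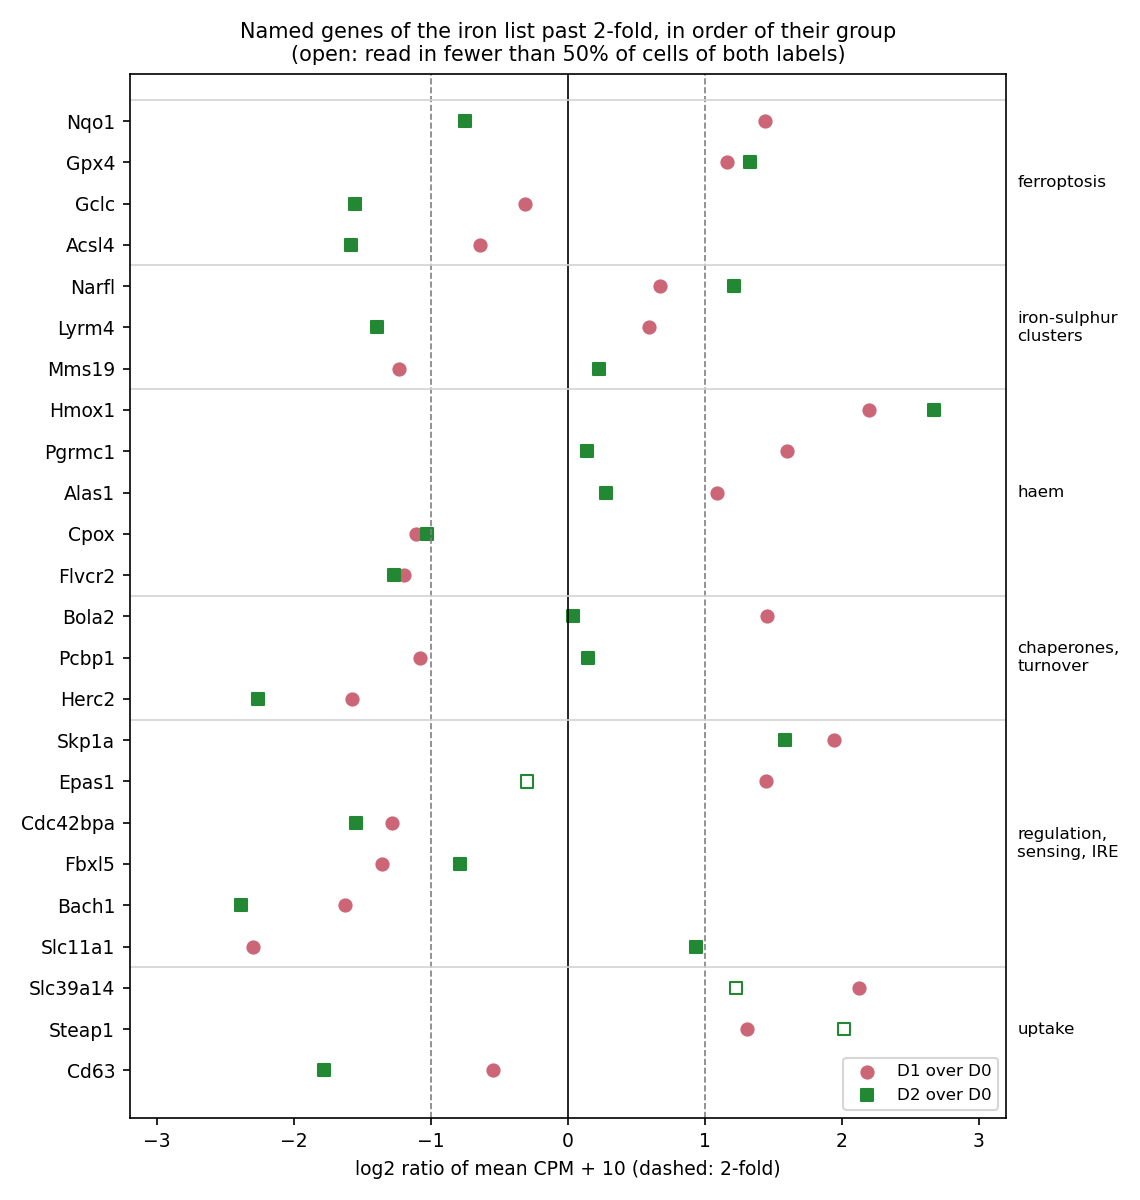
Log2 ratio of mean CPM + 10 for named genes of the iron list past 2-fold in D1 over D0 (circles) or D2 over D0 (squares), in order of their group, with dashed lines at 2-fold and open symbols where fewer than 50% of the cells of both labels had a read. Among filled symbols, those of Hmox1, Skp1a and Gpx4 are right of the upper line in both comparisons, and those of Bach1, Herc2, Cdc42bpa, Cpox and Flvcr2 are left of the lower line in both. Slc39a14 and Steap1 are also right of the upper line in both, with open symbols for D2.

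Haem genes gave 3 higher and 2 lower of 19 in D1 and 1 higher and 2 lower of 14 in D2. Hmox1, which breaks haem down and releases its iron, was the highest of them in D2 and had the largest ratios, with a mean of 50.2 ± 54.5, 266 ± 307 and 373 ± 629 CPM (2.19 and 2.67) and a median of 40.2, 171 and 121 CPM. Alas1, the first enzyme of haem synthesis (1.08 and 0.28), and Pgrmc1, a haem-binding membrane protein (1.60 and 0.14), were past 2-fold in D1 and not in D2. Cpox, a later enzyme of the synthesis (-1.11 and -1.03), and the transporter Flvcr2 (-1.20 and -1.27) were lower in both.

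Chaperones and genes of ferritin turnover gave 1 higher and 2 lower of 6 in D1 and 1 lower of 6 in D2. Pcbp1, which delivers iron to ferritin, averaged 245 ± 116, 111 ± 80.5 and 272 ± 314 CPM (-1.08 and 0.15). Herc2, a ligase for the ferritin receptor Ncoa4, was lower in both (-1.58 and -2.26). Bola2 was higher in D1 (1.45) and near its D0 level in D2 (0.04), and its partner Glrx3, the highest of the group in D0 and D1, averaged 361, 533 and 251 CPM.

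Of 28 genes for mitochondrial iron and iron-sulphur clusters, 26 and 24 met the limit on reads, and 0 and 1 were past 2-fold higher and 2 and 2 lower. Mms19, of the cytosolic cluster assembly, was lower in D1 (-1.23), and Lyrm4, a partner of the cysteine desulphurase, was lower in D2 (-1.39). The mean of Narfl was higher in D2 (1.21), although its median was 11.8 CPM in D0 and 0 in D2. Hspa9, a mitochondrial chaperone and the highest of the group, averaged 1221 ± 415, 835 ± 411 and 1349 ± 839 CPM (-0.54 and 0.14). The next group holds genes of ferroptosis, iron-dependent death by lipid peroxidation. Of its defence genes, Gpx4, which reduces lipid peroxides, was higher in both, with 229 ± 121, 526 ± 266 and 591 ± 411 CPM (1.16 and 1.33). Nqo1 was higher in D1 (1.44) and at -0.76 in D2, and Gclc, of glutathione synthesis, was past 2-fold lower in D2 (-1.56). Acsl4, also past 2-fold lower in D2 (-1.58), is on the same list but is known to promote ferroptosis, so the count of the group has no single direction. The 6 of 8 genes of the list that met the limit on reads gave 2 higher and 0 lower in D1 and 1 higher and 2 lower in D2.

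Other uptake genes were mostly sparse. Of 14, 8 in D1 and 4 in D2 met the limit on reads, with 2 higher and 0 lower in D1 and 0 higher and 1 lower in D2. Slc39a14, an importer of iron not bound to transferrin, had a read in 8.89% of D0 cells, 94% of D1 cells and 18.3% of D2 cells (2.13 in D1), and Steap1, of the metalloreductase family, in 10, 64 and 35.5% (1.31 in D1). Cd63, an endosomal tetraspanin, was lower in D2 (-1.78). Snx3, which takes part in the recycling of Tfrc and was the highest of the group, averaged 254 ± 134, 235 ± 96.0 and 444 ± 445 CPM (-0.11 and 0.78). No export gene met the limit: Slc40a1, the iron exporter ferroportin, had a read in 4.44, 6 and 1.08% of cells. Of the other ferritin genes, the highest was Fthl17f, with 2.33 CPM in D1.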

How the data were processed

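The RNA part of 288 scNMT-seq libraries was analysed. The authors aligned the reads with HISAT2 to GRCm38, per their processing notes, and deposited whole-number read counts per gene and well, before their filter on cells. The counting tool, annotation and use of strand are not given in the sources used here. The sample descriptions name a normalized table, but the values are whole numbers and include wells that fail the filter, so they were taken as counts. Rows of 2 symbols that occur on 2 rows each were summed.

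A cell was used if it had over 200000 reads, over 2000 genes and a mitochondrial fraction under 0.15. The study's methods write this last limit as a percentage, which 1 well would pass, so it was read as a fraction, and the 233 cells kept here are not the number that the study states. CPM was computed with the cell's own total, every cell weighs the same in a mean, and SDs are between cells. Past 2-fold refers to log2(mean CPM + 10) for genes read in 50% or more of the cells under one of the labels compared. With 1 culture per label, no test was run. Depth was between 202157 and 43336922 reads per kept cell. Shares have exact Clopper-Pearson 95% intervals, and a count of 0 allows up to 3 counts. Python 3.11.15, numpy 2.4.6, pandas 2.3.3, scipy 1.17.1 and edgeR 4.0.16 in R 4.3.3 (TMM factors) were used. The ratio, thinning and correlation steps were tested on simulated counts.

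Named genes are the 6 genes above, genes of the iron list past 2-fold with the highest of each group, and the 5 genes most correlated with Ftl, Fth1 and Tfrc. A gene with no established symbol was passed over, and some items are not reported here. Ftl1-ps1, Ftl1-ps2, Bola3, Alas2, Hprt and the Y-linked genes are named outside this rule. Genes and lists were chosen with earlier results of these data known, the Ftl2 share and the Hprt reads among them. Transcripts, hairpins and lengths came from GENCODE M21 (GRCm38), which may not be the annotation the authors used. The alternatives were the filter on cells, summed reads, medians, a pseudocount of 10 CPM, TMM factors, totals without mitochondrial genes, thinning, plate sides, Hprt reads, ferritin without Ftl2, and detection limits of 5 reads and 10 CPM.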

Additional observations from a re-analysis of the deposited data

Results flagged for a closer look

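Outside this section, wells that failed the filter on cells were used only in the alternatives with no filter. They hold reads on the light chain rows. In the 6 failing wells labelled D0 there were 86 reads on Ftl1 and Ftl2, of which 51 were on Ftl2 (59.3%, Clopper-Pearson 48.2 to 69.8%). In the 46 failing wells labelled D1 there were 1023 such reads, of which 3 were on Ftl2 (0.293%, 0.0605 to 0.855%). In the 3 failing wells labelled D2 there were 5045, of which 3327 were on Ftl2 (65.9%, 64.6 to 67.3%). The split in the failing wells of D1 was as one-sided as in its kept cells. No control wells are among the labels, and the totals of 86, 1023 and 5045 reads are above the 3 counts that a count of 0 allows, whereas the 3 reads on Ftl2 in D1 are not.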

How the results depend on the processing

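No paired analysis was possible because a label's well positions name wells and not shared cultures, each label is 1 culture, and no test was run. Of 157 alternative values of log2 ratios and balances over D0, 30 moved by less than their counting interval, 126 moved beyond it and 1 changed sign. The counting interval is narrow at these depths, and the spread between cells is far wider. The cause of each shift was not tested except where the alternative leaves out cells or genes. Aco1 has no ratio of medians with D2, where its median is 0.

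Values below are log2 ratios of D1 over D0 and then D2 over D0. For ferritin, 1.01 and 1.07, the values were 0.93 and 1.05 with no filter on cells, 1.08 and 1.08 with the limits at 300000 reads and 3000 genes, 1.06 and 1.15 with reads summed over cells, 0.96 and 1.01 from medians, 1.26 and 1.43 with TMM factors, 0.99 and 1.02 without mitochondrial genes, 0.74 and 1.06 in plate columns 1 to 6, 1.00 and 1.06 without the cells apart in Hprt reads, and 1.56 and 1.19 without Ftl2. For D1 alone they were 1.01 in thinned cells and 1.24 in columns 7 to 12.

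For Tfrc, -0.47 and -0.37, they were -0.59 and -3.75 from medians, -0.27 and -0.41 with TMM factors, -0.49 and -0.42 without mitochondrial genes, -0.50 and -0.39 in thinned cells, -0.22 and -0.32 in columns 1 to 6, and -0.71 and -0.40 in columns 7 to 12. For D1 alone the pseudocount gave -0.46. For D2 alone they were -0.31 with no filter, -0.69 with summed reads and -0.41 without the cells apart in Hprt reads.

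For the balance, 1.48 and 1.44, they were 1.39 and 1.36 with no filter, 1.55 and 1.46 with the higher limits, 1.53 and 1.84 with summed reads and also with TMM factors, 1.55 and 4.76 from medians, 1.51 and 1.45 in thinned cells, 0.95 and 1.37 in columns 1 to 6, 1.96 and 1.47 in columns 7 to 12, 1.47 and 1.46 by Hprt reads, and 2.03 and 1.56 without Ftl2. The pseudocount gave 1.46 for D1.

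Aco1 in D1 over D0 was 0.16 with TMM factors. The order of D1 and D2 was not stable, with 20 of 78 values of D2 over D1 reversed. Ferritin (0.06) became -0.00038 with the higher limits, -0.17 in columns 7 to 12 and -0.37 without Ftl2. Tfrc (0.10) became -0.21 with summed reads, -3.16 from medians, -0.14 with TMM factors and -0.10 in columns 1 to 6. The balance (-0.04) became 0.31 with summed reads and with TMM factors, 3.21 from medians and 0.42 in columns 1 to 6. Ftl (-0.06) became 0.087 with no filter, 0.022 with summed reads, 0.090 with TMM factors and 0.23 in columns 1 to 6. Fth1 (0.15) became -0.058 in columns 7 to 12. Ireb2 (0.37) became -0.10 with summed reads, -4.45 from medians and -0.031 with TMM factors, and Aco1 (-0.42) became 0.26 with no filter. Of 48 alternative shares of reads 39 moved, among them the Ftl2 share in D1, 3.09% as a mean over cells, which rests on the 2 cells without an Hprt read. Of 72 shares of cells 13 moved, among them Ftl2 in D1, 98% with a read but 18% at 10 CPM or more. The transcript lengths, the counts with Ftl1 and Ftl2 as a sum, the mean of shares and the TMM counts over the iron list were chosen after seeing the data.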
